A study of Mus musculus with 18 samples.

Results

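The genes described here encode 10 costimulatory receptors of T cells, *Cd28*, *Icos*, *Cd27*, *Tnfrsf4* (OX40), *Tnfrsf9* (4-1BB), *Tnfrsf18* (GITR), *Cd226* (DNAM-1), *Slamf1*, *Slamf6* and *Cd2*. They were chosen by symbol from the families of costimulatory receptors and matched to Ensembl identifiers, and all 10 were found among the 45706 genes listed for every library. RNA-seq was carried out on 18 cultures of CD8+ T cells from OT-I mice, whose T cell receptor sees a peptide of ovalbumin. Repeat peptide cells were given 10 ng/ml of the peptide every day for 5 days, and single peptide cells met it once for 48 hours and were then kept 3 days without it, all with IL-7 and IL-15. From day 5 to day 8 the cultures received 1 µM ibrutinib, a covalent inhibitor of the kinase BTK, or the solvent DMSO. According to the study's methods, the medium of repeat peptide cells still held peptide over these days. There were 4 libraries of repeat peptide cells with DMSO, 5 of repeat peptide cells with ibrutinib, 5 of single peptide cells with DMSO and 4 of single peptide cells with ibrutinib. The experiment of each culture was read from the genotype entry of its label, and experiments are lettered A to F here. All 4 groups are present for experiments A to D, whereas E holds just a repeat peptide culture with ibrutinib and F just a single peptide culture with DMSO. All labels give the strain as wild type OT-I. For experiments B to E, however, a *btk* knockout stands in the genotype field, with a different number for each. For A the entry is INHB with a number and the words left over, and for F it is PKC igoni with a number. These entries were taken to name the experiment, because the study's text on RNA-seq names OT-I cells and mentions no BTK deficient ones. That text does not state their *btk* genotype, and elsewhere the study exhausted BTK deficient OT-I cells and treated them with ibrutinib. The reading was not tested. The cultures were an in vitro model of exhaustion with purified cells, without other cell types added on purpose, and the labels do not say how many mice stand behind a culture.

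A T cell needs a costimulatory signal beside that of its antigen receptor. CD28 binds CD80 and CD86 and is present on resting cells, ICOS is its relative that appears after activation, and CTLA-4 takes the same ligands as CD28 with an inhibitory outcome. CD27, OX40, 4-1BB and GITR are receptors of the TNF receptor superfamily that signal through TRAF adaptors to NF-κB, and 4-1BB and OX40 are known as receptors induced by antigen. CD226 and the inhibitory receptor TIGIT compete for CD155, the product of *Pvr*, and for nectin-2. SLAMF1 and SLAMF6 bind themselves on neighbouring cells, and CD2 binds CD48 in the mouse.

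The cells carried the RNA of their label. The summed level of 7 CD8 T cell markers lay between 2876 and 4283 TPM (the authors' expression value per length) in every library, and *Cd4* was under 0.5 TPM in all 18. The 3 markers of CD4 or regulatory T cells summed to 15.4 to 20.8 TPM in repeat peptide cells with DMSO, 5.38 to 16.1 in those with ibrutinib, and 1.87 to 11.1 and 2.54 to 12.3 in single peptide cells with DMSO and ibrutinib, through *Zbtb7b* and *Foxp3*. *Zbtb7b* was higher in repeat peptide cells with DMSO (log2 fold change 2.37, called) and *Foxp3* lower (-5.66, called). Of 5 B cell markers 4, *Cd79a*, *Ms4a1* and *Pax5* among them, were under 0.5 TPM in all 18 libraries, whereas *Cd79b* had 0.96 to 7.08 TPM and was lower in repeat peptide cells with DMSO (-1.56, called). Of 8 myeloid and dendritic cell markers 5 (*Csf1r*, *Adgre1*, *Siglech*, *Flt3* and *Clec9a*) were under 0.5 TPM in all 18, whereas *Cd68*, *Itgax* and *Lyz2* reached 6.02, 4.08 and 5.92 TPM. The 8 summed to 0.68 to 10.3 TPM, and *Cd68* was higher in repeat than in single peptide cells with ibrutinib (2.46, called). The 2 NK cell markers summed to 0.59 to 2.73 TPM in single peptide cells, 2.64 to 11.4 TPM in repeat peptide cells with DMSO and 2.69 to 25.6 TPM in repeat peptide cells with ibrutinib. In repeat peptide cells *Ncr1* made up at most 0.42 TPM of it and *Klrb1c* the rest, whereas in single peptide cells *Ncr1* reached 1.16 TPM. The part of other cell types in the results was not tested. Total expected counts per library ranged from 23445922 to 51995372 (median 27420966). In bulk RNA, fewer cells with a transcript and less of it per cell cannot be told apart, and p-values measure the spread between these cultures.

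The promoters of *Tnfrsf9* and *Tnfrsf4* are shown because these genes differed most between repeat and single peptide cells. RefSeq (GRCm38.p6) gives a promoter for 6 of the 10 genes, with 2 starts for *Tnfrsf9*, 7844 bases apart on the plus strand of chromosome 4. Capitals mark the core of NFAT sites (GGAAA or its reverse complement) and, at the downstream start, the consensus of NF-κB, which overlaps a TTTCC there. The upstream start of *Tnfrsf9* is shown with the 250 bases before it (chr4:150919905-150920154). For its downstream start, 30 bases are shown that begin 46 bases before it (chr4:150927953-150927982). For *Tnfrsf4*, 84 bases before its start are shown (chr4:156013611-156013694). In the GENCODE annotation an exon of 1 transcript, on either strand, overlaps the 30 bases at the downstream start, and none overlaps the other stretches shown. That annotation also begins *Tnfrsf9* at chr4:150914562, before both starts.
Tnfrsf9 upstream start: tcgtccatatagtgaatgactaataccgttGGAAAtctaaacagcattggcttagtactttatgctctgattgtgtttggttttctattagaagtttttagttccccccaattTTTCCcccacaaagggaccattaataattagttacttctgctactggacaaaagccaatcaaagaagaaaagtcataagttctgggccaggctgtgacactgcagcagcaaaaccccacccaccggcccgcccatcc
Tnfrsf9 downstream start: gctGGGGATTTCCCaggaggccctgctcag
Tnfrsf4: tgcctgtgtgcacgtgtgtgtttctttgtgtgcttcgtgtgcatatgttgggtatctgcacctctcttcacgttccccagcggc
Among the 7 promoters of these genes, searched on both strands over 250 bases before the start, only the downstream start of *Tnfrsf9* held the NF-κB consensus, in overlapping matches that begin 43 and 42 bases before the start, or an AP-1 site (TGANTCA), 15 bases before it. The NF-κB consensus occurs in 5% and the AP-1 site in 6.75% of all 32851 promoters of the table. The NFAT core occurs in 55.6% of them and in 6 of these 7, the promoter of *Slamf6* being without it. A match is a description of the letters and not a measured site.

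Compared as TPM, the order of the receptors was not the same in the 4 groups. In single peptide cells with DMSO *Cd2* was highest at 336.9 ± 7.55 TPM (SD, n = 5), followed by *Cd27* at 259.5 ± 43.9 and *Tnfrsf18* at 134.6 ± 13.2, and libraries of these neighbours did not overlap. *Slamf6*, *Cd28*, *Cd226*, *Tnfrsf9* and *Icos* came next with means from 41.4 down to 16.3 TPM, and the libraries of each of these 5 overlapped those of the next. *Icos* did not overlap *Slamf1* below it. *Slamf1* at 6.09 ± 2.15 TPM and *Tnfrsf4* at 5.71 ± 2.76 TPM were lowest and overlapped. In repeat peptide cells with DMSO *Tnfrsf9* had the highest mean, 332.9 ± 127 TPM (SD, n = 4), above *Cd2* at 292.1 ± 33.4 and *Tnfrsf18* at 268.1 ± 53, all overlapping their neighbours. *Tnfrsf4* followed *Cd27* there at 133.7 ± 57.5 TPM, and *Cd226* and *Slamf1* were lowest at 9.04 ± 5.91 and 5.63 ± 1.68 TPM, also overlapping. With ibrutinib *Tnfrsf9* stood below *Cd2*, *Tnfrsf18* and *Cd27* in repeat peptide cells, at 143.1 ± 57.6 TPM (SD, n = 5), and among the lowest with *Slamf1* and *Tnfrsf4* in single peptide cells, at 5.13 ± 1.7 TPM (SD, n = 4).

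**Figure D1:**
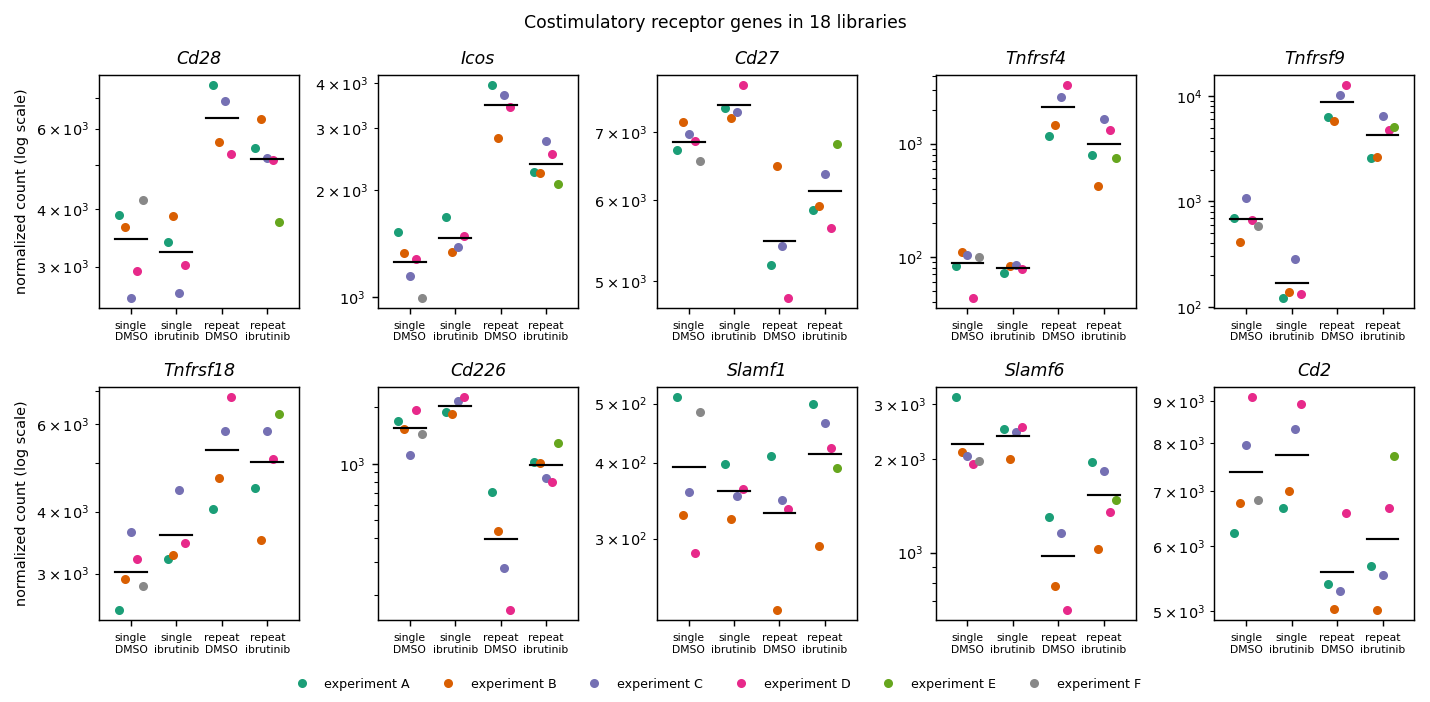
Normalized count (log scale, read counts brought to a common effective library size) of each costimulatory receptor gene in 18 libraries, by group on the horizontal axis. Points are libraries coloured by experiment and bars are group means. *Tnfrsf4* and *Tnfrsf9* sit far higher in both repeat peptide groups, whereas *Cd226* and *Slamf6* are lowest in repeat peptide cells with DMSO.

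The first comparison asks how lasting antigen stimulation changed the receptors, and the others whether ibrutinib altered them in either kind of cell. A gene was called when its Benjamini-Hochberg adjusted p in edgeR's quasi-likelihood test over 12255 genes was under 0.05, its normalized count averaged 50 or more and its log2 fold change was above 0.2 in size. In repeat against single peptide cells with DMSO, 9 of the 10 receptors were called, where 47% of all tested genes were. Of these 5 were higher (22.8% of all genes were) and 4 lower (24.2% of all genes). With ibrutinib in both arms 8 of 10 were called, 5 higher and 3 lower, against 38.4% of all genes, 18.7% higher and 19.6% lower. Ibrutinib against DMSO in repeat peptide cells gave 2 called receptors, 1 higher and 1 lower, where 5.92% of all genes were called, 4.01% higher and 1.92% lower. Among single peptide cells it gave 1, which was lower, where 3.04% of all genes were called, 0.351% higher and 2.69% lower. The difference between both ibrutinib effects (the interaction) was called for 1 receptor and for 1.26% of all genes. The fit behind these counts does not use the experiment. With the experiment as a block, *Tnfrsf9* and *Slamf6* were also called for ibrutinib in repeat peptide cells. *Cd2* was then also called for repeat against single peptide cells with ibrutinib. The median absolute log2 fold change of the 10 receptors was 1.04 in repeat against single peptide cells with DMSO (all tested genes 0.48) and 0.44 for ibrutinib in repeat peptide cells (all genes 0.20). It was 0.13 for ibrutinib in single peptide cells, beside 0.15 for all genes. These comparisons share groups, so that the same DMSO libraries stand in more than one of them.

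*Cd28* (ENSMUSG00000026012, chr1:60716800-60773359, plus strand) encodes the receptor of CD80 and CD86. Its normalized counts in repeat peptide cells with DMSO were 7464, 5612, 6909 and 5280 in experiments A to D. In single peptide cells with DMSO they were 3883, 3668, 2568 and 2939 in experiments A to D and 4192 in F. All 4 repeat peptide libraries lay above all 5 single peptide libraries, and *Cd28* was 1.83-fold higher (log2 fold change 0.87, SE 0.16, edgeR adjusted p = 0.000194). With ibrutinib the counts were 5448, 6288, 5180 and 5114 in experiments A to D and 3761 in E for repeat peptide cells, and 3391, 3869, 2629 and 3024 for single peptide cells. The library of experiment E fell within the single peptide range, and the rise was 1.60-fold (log2 fold change 0.68, SE 0.16, edgeR adjusted p = 0.00286). The effect of ibrutinib on *Cd28* did not pass the test in repeat peptide cells (log2 fold change -0.29, 95% interval -0.63 to 0.05) or in single peptide cells (-0.10, -0.44 to 0.25).

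*Icos* (ENSMUSG00000026009, chr1:60977927-61000320, plus strand) encodes the inducible relative of CD28 and was the receptor whose 3 levels separated without overlap. Its normalized counts in repeat peptide cells with DMSO were 3955, 2815, 3708 and 3438 in experiments A to D. With ibrutinib they were 2249, 2239, 2759 and 2534 in experiments A to D and 2077 in E. The 9 single peptide libraries ranged from 995.6 to 1677, below every repeat peptide library. *Icos* was 2.77-fold higher in repeat than in single peptide cells with DMSO (log2 fold change 1.47, SE 0.13, edgeR adjusted p = 3.76e-08) and 1.61-fold higher with ibrutinib (0.69, SE 0.13, edgeR adjusted p = 0.000293). Ibrutinib lowered it 1.47-fold in repeat peptide cells (log2 fold change -0.55, SE 0.13, edgeR adjusted p = 0.0117), in all 4 experiments that held both treatments. A test with limma on log2(TPM + 1) did not call that fall (-0.63, adjusted p = 0.107) and called *Tnfrsf9* in its place. The mean of single peptide cells was 1255 ± 198 with DMSO (SD, n = 5) and 1469 ± 151 with ibrutinib (SD, n = 4), a log2 fold change of 0.23 that did not pass the test (95% interval -0.04 to 0.49). The ibrutinib effects in the 2 kinds of cell differed by -0.78 on the log2 scale (SE 0.18, edgeR adjusted p = 0.0358). That call was lost in 13 of the 18 fits that left out 1 library, with adjusted p of up to 0.102, and was kept only without repeat peptide DMSO B, repeat peptide ibrutinib C or D, single peptide DMSO A or single peptide ibrutinib B.

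The TNF receptor superfamily members spanned the widest range. *Tnfrsf9* (ENSMUSG00000028965, chr4:150914562-150946102, plus strand) encodes 4-1BB, which binds the product of *Tnfsf9*. Its normalized counts in repeat peptide cells with DMSO were 6293, 5759, 10110 and 12622 in experiments A to D. With ibrutinib they were 2579, 2605, 6421 and 4714 in experiments A to D and 5065 in E. In single peptide cells they were 701.1, 407.8, 1065 and 667.4 in experiments A to D and 580.2 in F with DMSO, and 122.3, 137.7, 283.8 and 131.5 with ibrutinib. Repeat and single peptide libraries were far apart under either treatment, and the single peptide ibrutinib libraries all lay below the single peptide DMSO libraries. *Tnfrsf9* was 12.7-fold higher in repeat peptide cells with DMSO (log2 fold change 3.67, SE 0.34, edgeR adjusted p = 1.18e-07) and 25.3-fold higher with ibrutinib (4.66, SE 0.39, edgeR adjusted p = 6.56e-08). Ibrutinib lowered it 4.04-fold in single peptide cells (log2 fold change -2.02, SE 0.36, edgeR adjusted p = 0.00592), the only receptor called there, and it was lower in all 4 experiments. In repeat peptide cells the log2 fold change was -1.02 (SE 0.32, edgeR adjusted p = 0.062), not called, although it was lower in all 4 experiments, by 0.65 to 1.42 on the log2 CPM scale. With the experiment as a block in the fit it was called there (-1.14, edgeR adjusted p = 0.000877), as it was without repeat peptide DMSO B or repeat peptide ibrutinib C (adjusted p 0.0303 to 0.0446). The difference between both ibrutinib effects was 0.99 on the log2 scale (95% interval 0.00 to 1.98, edgeR adjusted p = 0.435).

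*Tnfrsf4* (ENSMUSG00000029075, chr4:156013843-156016612, plus strand) encodes OX40 and had the largest fold change of the 10 with DMSO. Its normalized counts were 1158, 1453, 2582 and 3296 in experiments A to D of repeat peptide cells with DMSO. With ibrutinib they were 798.1, 423.2, 1667 and 1317 in experiments A to D and 751 in E. The 9 single peptide libraries ranged from 43.5 to 109.3, below all repeat peptide libraries. The fold change was 24.3 with DMSO (log2 4.60, SE 0.39, edgeR adjusted p = 2.82e-08) and 12.5 with ibrutinib (log2 3.64, SE 0.40, edgeR adjusted p = 1.22e-06). In repeat peptide cells ibrutinib gave a log2 fold change of -1.10 (SE 0.34, edgeR adjusted p = 0.0582), not called, with a lower value in all 4 experiments. Without repeat peptide DMSO A or B or repeat peptide ibrutinib C or D it was called (adjusted p 0.0174 to 0.0467). The single peptide value was -0.13 (95% interval -0.94 to 0.67), and 3 of 4 experiments were lower.

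*Tnfrsf18* (ENSMUSG00000041954, chr4:156026164-156028895, plus strand) encodes GITR and lies 9.6 kb beyond *Tnfrsf4* on the same strand. Its normalized counts in repeat peptide cells with DMSO were 4048, 4670, 5820 and 6789 in experiments A to D, and the 5 single peptide libraries with DMSO ranged from 2536 to 3641. These groups did not overlap, and the rise was 1.76-fold (log2 fold change 0.82, SE 0.17, edgeR adjusted p = 0.000533), far smaller than that of its neighbour *Tnfrsf4*. With ibrutinib the groups overlapped, at 3507 to 6296 in repeat and 3207 to 4410 in single peptide cells, and the rise was 1.41-fold (0.49, SE 0.17, edgeR adjusted p = 0.0262). That call was lost without repeat peptide ibrutinib C or E or single peptide ibrutinib A or B (adjusted p 0.0634 to 0.0733). Ibrutinib gave log2 fold changes of -0.08 (95% interval -0.44 to 0.27) in repeat and 0.24 (-0.11 to 0.60) in single peptide cells, neither called.

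*Cd27* (ENSMUSG00000030336, chr6:125232622-125237010, minus strand) encodes a TNF receptor superfamily member that naive T cells already carry, and it moved against the other 3. Its normalized counts were 5191, 6479, 5418 and 4820 in experiments A to D of repeat peptide cells with DMSO and between 6552 and 7151 in the 5 single peptide libraries with DMSO. The groups did not overlap but lay close together, and *Cd27* was 1.25-fold lower in repeat peptide cells (log2 fold change -0.32, SE 0.09, edgeR adjusted p = 0.00383). With ibrutinib it was 1.21-fold lower (-0.28, SE 0.08, edgeR adjusted p = 0.0125), a call lost without single peptide ibrutinib D (adjusted p = 0.0586). A test with limma on log2(TPM + 1) called neither (adjusted p = 0.27 and 0.502). Ibrutinib against DMSO gave 0.16 (95% interval -0.02 to 0.34) in repeat and 0.12 (-0.06 to 0.29) in single peptide cells. Regulatory T cells also carry OX40 and GITR. Their marker *Foxp3* was at 0 to 0.08 TPM in repeat peptide cells with DMSO and 0.09 to 1.02 with ibrutinib, and at 0.77 to 5.55 and 0.75 to 8.49 TPM in single peptide cells with DMSO and ibrutinib. *Zbtb7b*, a factor of CD4 T cells, was at 15.3 to 20.7 and 5.21 to 15.8 TPM in repeat and at 1.00 to 5.60 and 1.74 to 3.79 TPM in single peptide cells, in the same order of treatments. The part of such cells was not tested.

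*Cd226* (ENSMUSG00000034028, chr18:89176967-89272229, plus strand) encodes DNAM-1, the activating partner of TIGIT, and was the receptor that fell most with repeat peptide. It was also the one called higher with ibrutinib in repeat peptide cells, where *Slamf6* joined it with the experiment as a block. Its normalized counts in repeat peptide cells with DMSO were 710.7, 440.3, 277 and 166.5 in experiments A to D. With ibrutinib they were 1022, 1010, 838.1 and 800.5 in experiments A to D and 1290 in E. Every ibrutinib library lay above every DMSO library of repeat peptide cells, and the rise was 2.49-fold (log2 fold change 1.32, SE 0.28, edgeR adjusted p = 0.0087). It was higher in all 4 experiments, by 0.52 in A, 1.19 in B, 1.59 in C and 2.25 in D on the log2 CPM scale. Single peptide cells had 1704, 1541, 1114, 1931 and 1445 with DMSO in experiments A, B, C, D and F, and 1893, 1845, 2169 and 2263 with ibrutinib in A to D. *Cd226* was thus 3.89-fold lower in repeat than in single peptide cells with DMSO (log2 fold change -1.96, SE 0.29, edgeR adjusted p = 2.1e-05) and 2.06-fold lower with ibrutinib (-1.04, SE 0.27, edgeR adjusted p = 0.0047). For single peptide cells the effect of ibrutinib was 0.40 (95% interval -0.17 to 0.97), not called, though higher in all 4 experiments. The difference between both effects was 0.92 (95% interval 0.10 to 1.74, edgeR adjusted p = 0.355). NK cells also carry DNAM-1. Of their 2 markers, *Klrb1c* was higher in repeat than in single peptide cells with DMSO (log2 fold change 1.79, called), against the direction of *Cd226*. *Ncr1* was lower (-4.56, edgeR adjusted p = 0.0309), the direction of *Cd226*. It had 4.9 normalized counts on average, under the minimum for a call. For ibrutinib in repeat peptide cells *Klrb1c* had 0.67 (edgeR adjusted p = 0.505), the direction of *Cd226*, and was higher in 3 of 4 experiments. *Ncr1* averaged 4.67 ± 6.47 normalized counts in repeat peptide cells with ibrutinib (SD, n = 5) and 0.247 ± 0.494 in those with DMSO (SD, n = 4). The part of NK cells was not tested. A fit of the 2 repeat peptide groups alone gave an edgeR adjusted p of 0.0508 for the rise of *Cd226* with ibrutinib.

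*Slamf6* (ENSMUSG00000015314, chr1:171917515-171953170, plus strand) encodes Ly108, a receptor used as a marker of progenitor exhausted T cells. Its normalized counts in repeat peptide cells with DMSO were 1302, 778.9, 1154 and 654.3 in experiments A to D. With ibrutinib they were 1956, 1029, 1837 and 1352 in experiments A to D and 1479 in E. The 9 single peptide libraries ranged from 1929 to 3157, above every repeat peptide library with DMSO. *Slamf6* was 2.30-fold lower in repeat peptide cells with DMSO (log2 fold change -1.20, SE 0.21, edgeR adjusted p = 0.000126). With ibrutinib it was 1.55-fold lower (-0.63, SE 0.21, edgeR adjusted p = 0.0193), a call lost without repeat peptide ibrutinib B or single peptide ibrutinib A or D (adjusted p 0.0529 to 0.0578), with a length offset, and with limma on log2(TPM + 1) (adjusted p = 0.209). Ibrutinib in repeat peptide cells gave 0.65 (SE 0.21, edgeR adjusted p = 0.0693), not called, with a higher value in all 4 experiments. With the experiment as a block *Slamf6*, like *Tnfrsf9*, was called there (0.67, edgeR adjusted p = 0.00533). It was also called without repeat peptide DMSO A or repeat peptide ibrutinib B (adjusted p 0.0345 to 0.0369). The value in single peptide cells was 0.08 (95% interval -0.35 to 0.51), with 2 experiments higher and 2 lower.

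*Slamf1* (ENSMUSG00000015316, chr1:171767127-171801184, plus strand), which encodes CD150, was not called in any comparison. Its normalized counts were 409.4, 229, 347.4 and 335.1 in experiments A to D of repeat peptide cells with DMSO, and all 18 libraries lay between 229 and 511.8. The log2 fold change of repeat against single peptide cells was -0.25 with DMSO (95% interval -0.66 to 0.16) and 0.21 with ibrutinib (-0.21 to 0.62). Ibrutinib gave 0.33 in repeat peptide cells (95% interval -0.09 to 0.74), higher in all 4 experiments by 0.28 to 0.42 on the log2 CPM scale, and -0.13 in single peptide cells (-0.54 to 0.28). Changes inside these intervals remain compatible with the values and are not excluded.

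*Cd2* (ENSMUSG00000027863, chr3:101275899-101287939, minus strand) encodes an adhesion and costimulatory receptor of all T cells. Its normalized counts were 5405, 5036, 5291 and 6587 in experiments A to D of repeat peptide cells with DMSO and 6230, 6778, 7967, 9102 and 6823 in experiments A, B, C, D and F of single peptide cells with DMSO. The groups overlapped through experiment D of the former and experiment A of the latter, and *Cd2* was 1.32-fold lower in repeat peptide cells (log2 fold change -0.40, SE 0.14, edgeR adjusted p = 0.02). That call was lost without repeat peptide DMSO B or C or single peptide DMSO D (adjusted p 0.0546 to 0.0594) and with limma on log2(TPM + 1) (adjusted p = 0.0749). With ibrutinib the log2 fold change was -0.34 (SE 0.14, edgeR adjusted p = 0.0544), not called, and with the experiment as a block -0.43 (edgeR adjusted p = 0.000154), which was called, as it was without repeat peptide ibrutinib E (adjusted p = 0.0132) and with a length offset (adjusted p = 0.0345). Within experiments *Cd2* was lower in all 4 under either treatment. Ibrutinib against DMSO gave 0.13 (95% interval -0.16 to 0.42) in repeat and 0.07 (-0.22 to 0.36) in single peptide cells.

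**Figure D2:**
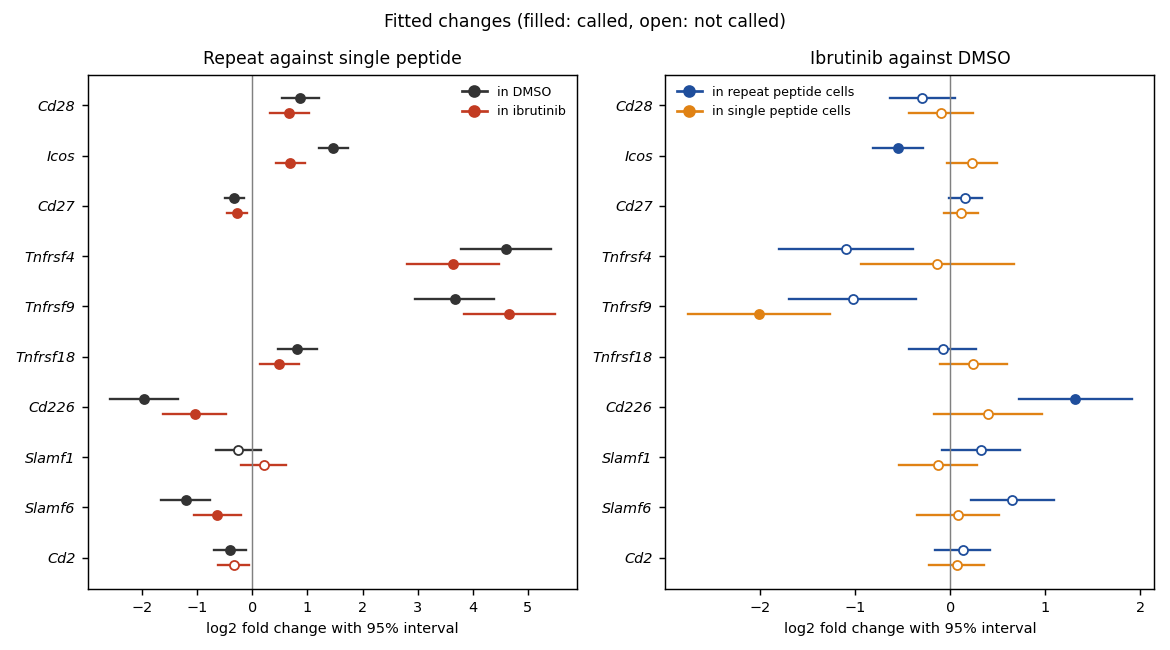
Fitted log2 fold changes with 95% intervals of the 10 receptor genes for repeat against single peptide cells (left, by treatment) and ibrutinib against DMSO (right, by kind of cell). Filled points passed all 3 thresholds. *Tnfrsf4* at 4.60 and *Tnfrsf9* at 3.67 stand apart on the left, and on the right *Icos* and *Cd226* are filled in repeat peptide cells and *Tnfrsf9* in single peptide cells.

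**Figure D3:**
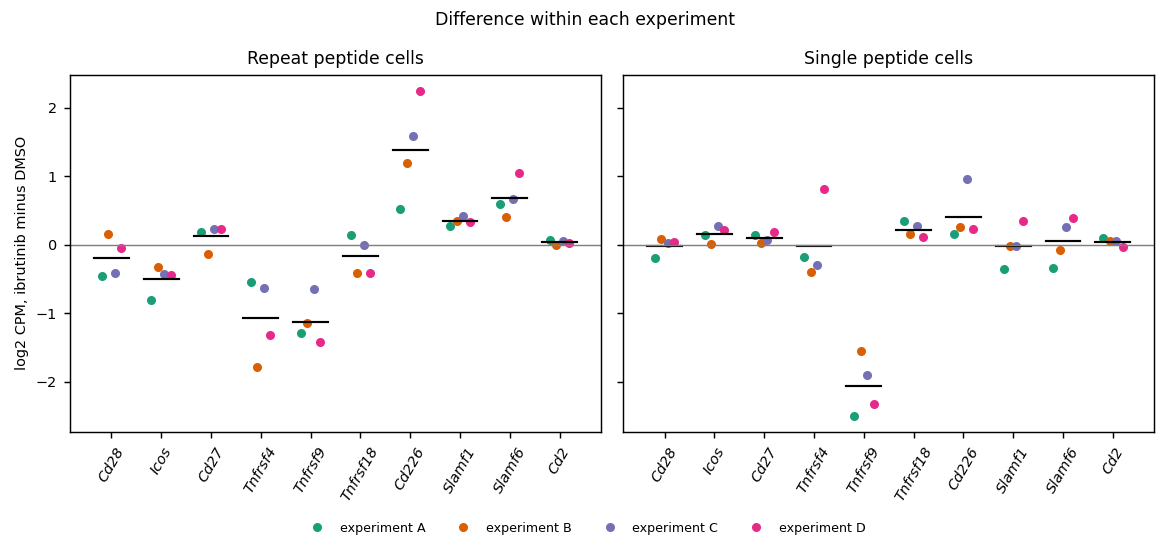
Difference in log2 CPM between ibrutinib and DMSO within each of experiments A to D, for repeat peptide cells (left) and single peptide cells (right). Points are experiments and bars their means. *Tnfrsf9* is below 0 in all 4 experiments in both panels, and *Cd226* is above 0 in all 4, from 0.52 to 2.25 in repeat peptide cells.

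Receptors that take the same ligand with opposite outcome were set beside their costimulatory partner as a log2 ratio within each library (log2 CPM of one gene minus that of the other). Such a ratio also holds the length of both genes, so that only its difference between groups is read. *Tigit*, the inhibitory receptor that competes with CD226, had normalized counts of 3078 ± 372 (SD, n = 4) in repeat peptide cells with DMSO, 1467 ± 292 (SD, n = 5) in those with ibrutinib, 203.7 ± 52.3 (SD, n = 5) in single peptide cells with DMSO and 64 ± 44 (SD, n = 4) in those with ibrutinib. The log2 ratio of *Cd226* to *Tigit* was -2.06, -2.94, -3.59 and -3.95 in experiments A to D of repeat peptide cells with DMSO, and -0.21, -0.60, -1.20, -0.82 and 0.02 in experiments A to E with ibrutinib. In single peptide cells it was 3.23, 2.92, 2.57, 3.60 and 2.30 in experiments A, B, C, D and F with DMSO and 5.35, 3.86, 5.08 and 6.47 in A to D with ibrutinib. The 4 groups did not overlap. The mean ratio of repeat minus single peptide cells was -6.06 with DMSO and -5.75 with ibrutinib, and that of ibrutinib minus DMSO was 2.57 in repeat and 2.27 in single peptide cells. Each of these differences had p = 0.00794 in a two-sided exact permutation test over 126 splits, the smallest that 4 libraries against 5 allow, and an adjusted p of 0.0159 over the 8 ratio tests. That test does not use the experiment. Within experiments A to D each of the differences had the same sign in all 4. A two-sided exact sign-flip test gave p = 0.125 for each, the smallest that 4 pairs allow. *Tigit* itself fell with ibrutinib by 1.07 on the log2 scale in repeat peptide cells (SE 0.27, edgeR adjusted p = 0.0211) and by 1.66 in single peptide cells (SE 0.31, edgeR adjusted p = 0.00703). The former call was lost without repeat peptide DMSO B or C or repeat peptide ibrutinib A or E (adjusted p 0.05 to 0.0698).

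*Ctla4*, the inhibitory receptor for the ligands of CD28, lies between *Cd28* and *Icos* on chromosome 1, 113.6 kb from the former and 62.1 kb from the latter. It had 5520 ± 950 normalized counts (SD, n = 4) in repeat and 2552 ± 774 (SD, n = 5) in single peptide cells with DMSO, and rose by a log2 fold change of 1.11 (SE 0.19, edgeR adjusted p = 6.74e-05). With ibrutinib that change was 0.32 (SE 0.19, edgeR adjusted p = 0.179), not called. In repeat peptide cells the log2 ratio of *Cd28* to *Ctla4* averaged 0.20 ± 0.33 (SD, n = 4) under DMSO and 0.29 ± 0.38 (SD, n = 5) under ibrutinib. Single peptide cells averaged 0.46 ± 0.45 (SD, n = 5) under DMSO and -0.05 ± 0.40 (SD, n = 4) under ibrutinib. No difference passed (two-sided exact permutation test, p = 0.119 to 0.714, adjusted p = 0.19 to 0.714), the largest being -0.51 for ibrutinib in single peptide cells. This test does not use the experiment. Within experiments A to D the ratio in repeat minus single peptide cells with ibrutinib was 0.30, 0.73, 0.66 and 0.13, higher in all 4, and that of ibrutinib minus DMSO in repeat peptide cells was 0.00 to 0.38. With 4 pairs a two-sided exact sign-flip test cannot go below p = 0.125, its value for both. The other 2 differences had both signs among the 4 experiments. With DMSO, *Cd28* and *Ctla4* both rose with repeat peptide, while *Cd226* fell and *Tigit* rose.

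**Figure D4:**
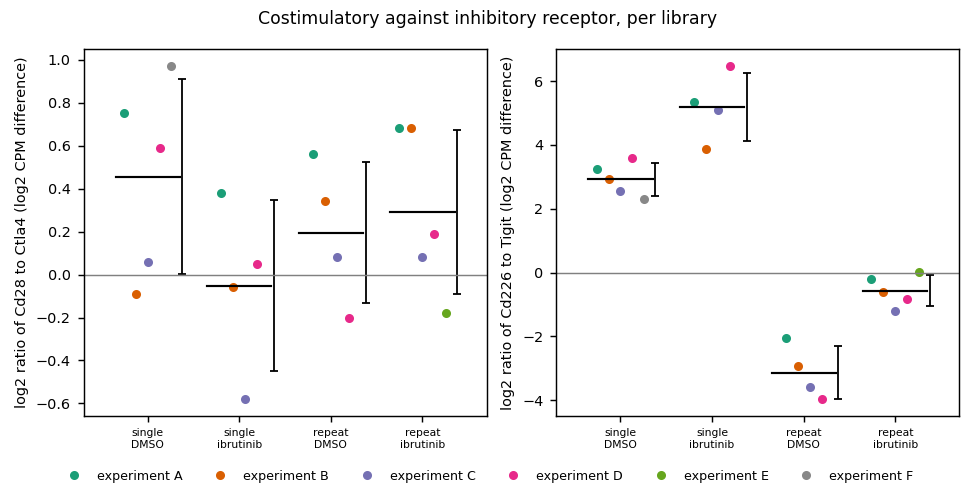
Log2 ratio of *Cd28* to *Ctla4* (left) and of *Cd226* to *Tigit* (right), as the difference in log2 CPM in each library, by group. Points are libraries coloured by experiment, long bars are group means and error bars are 1 SD. The right panel shows 4 groups without overlap, from a mean of -3.13 in repeat peptide cells with DMSO to 5.19 in single peptide cells with ibrutinib, and the left panel shows overlapping groups.

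The ligands were measured in the same T cells. Of 10 ligand genes 9 were tested, *Tnfsf18* being too low, and 5 were higher and 1 lower in repeat than in single peptide cells with DMSO, where 22.8% of all genes were higher and 24.2% lower. *Tnfsf4*, which encodes the ligand of OX40, rose most of the 5 called, from 19.4 ± 22.7 normalized counts (SD, n = 5) to 425.5 ± 142 (SD, n = 4), a log2 fold change of 4.44 (SE 0.61, edgeR adjusted p = 9.7e-06). *Cd48*, the ligand of CD2 and the one that fell, went from 4663 ± 1346 to 3218 ± 463 (log2 fold change -0.54, SE 0.19, edgeR adjusted p = 0.0257), with overlapping libraries, and the call was lost without repeat peptide DMSO A, C or D or single peptide DMSO D (adjusted p 0.0558 to 0.0906). *Cd80*, *Tnfsf9*, *Icosl* and *Pvr* were the other 4 that rose. The only ligand called for ibrutinib in repeat peptide cells, where 5.92% of all genes were called, was *Cd80*, which encodes a ligand of CD28 and CTLA-4. Its normalized counts were 1460, 1312, 1897 and 2091 in experiments A to D with DMSO and 736.2, 750.8, 1003 and 919.8 in A to D and 540.3 in E with ibrutinib. These groups did not overlap, and *Cd80* fell by 1.10 on the log2 scale (SE 0.23, edgeR adjusted p = 0.00637). *Tnfsf4* was not called there, though its groups did not overlap either (295.2 to 608.4 with DMSO, 69.03 to 235 with ibrutinib). Its differences within experiments A to D were -1.70, -1.91, -0.98 and -1.40 in log2 CPM. *Tnfsf9* and *Nectin2* were also lower in all 4, *Cd86* and *Cd48* higher in all 4, and *Icosl*, *Cd70* and *Pvr* had both signs. In single peptide cells, where 3.04% of all genes were called for ibrutinib, *Icosl*, which encodes the ligand of ICOS, was the only ligand called, and it was lower. *Nectin2*, which encodes a ligand of CD226, had a log2 fold change of 5.27 in repeat against single peptide cells with DMSO at 11.4 normalized counts on average, under the minimum for a call. *Cd70*, which encodes the ligand of CD27, was listed at 0 TPM in all single peptide libraries and at 0.13 to 4.63 TPM in repeat peptide libraries, below the minimum count for a call. The 9 tested ligands had a median log2 fold change of 1.56 in repeat against single peptide cells with DMSO, where the median of all genes was 0.00, and of -0.66 for ibrutinib in repeat peptide cells.

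**Figure D5:**
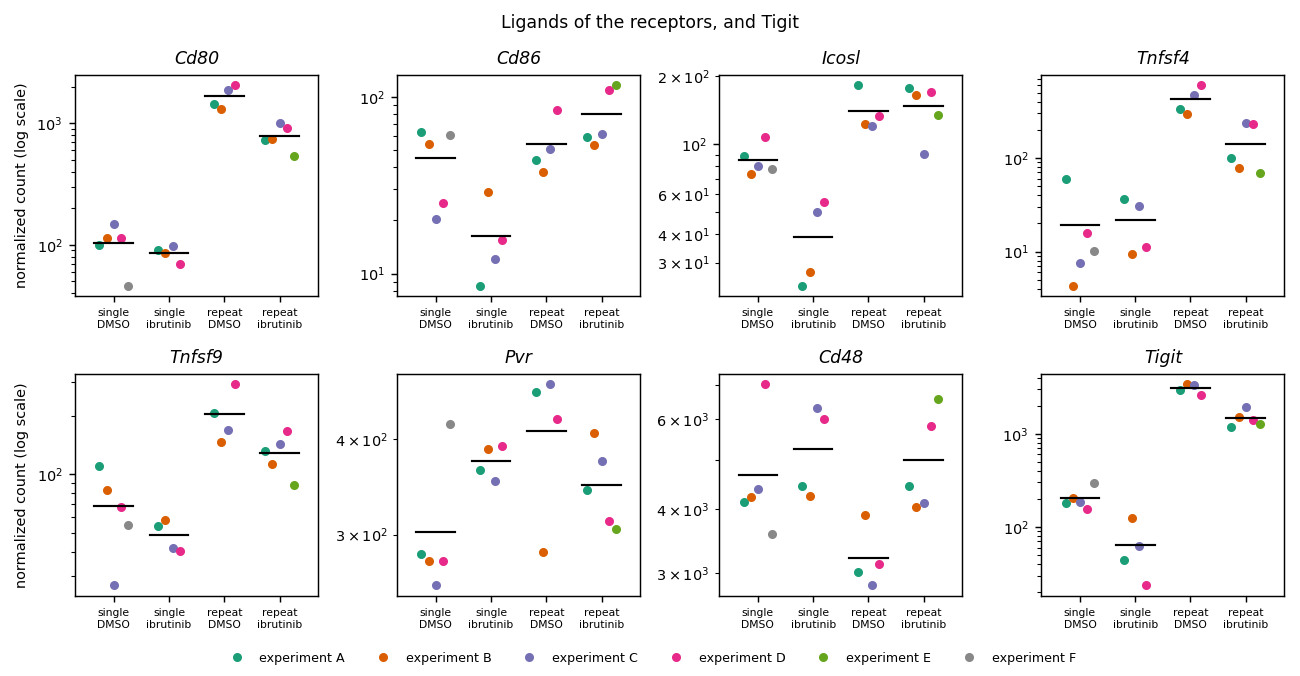
Normalized count (log scale) of 7 ligand genes of the receptors and of *Tigit* in 18 libraries, by group on the horizontal axis. Points are libraries coloured by experiment and bars are group means. *Cd80* and *Tnfsf4* are higher in all repeat peptide libraries than in single peptide libraries, and *Cd80* drops from a mean of 1690 with DMSO to 789.9 with ibrutinib.

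Of the 5 receptors listed as sharing a ligand with one of the 10 and opposing it, 4 were tested, and all 4 (*Tigit*, *Cd244a*, *Ctla4* and *Cd96*) were higher in repeat peptide cells with DMSO, as 22.8% of all genes were. *Cd244a*, the receptor of CD48 known as 2B4, also led the other SLAM family receptors, of which 1 of 5 tested was higher and 4 (*Ly9*, *Slamf7*, *Cd84* and *Cd48*) were lower (24.2% of all genes were). It rose from 27.9 ± 11.8 normalized counts (SD, n = 5) to 411.3 ± 268 (SD, n = 4), a log2 fold change of 3.86 (SE 0.58, edgeR adjusted p = 2.54e-05). Experiment B held its highest values in repeat peptide cells, 783.9 with DMSO and 827 with ibrutinib, and NK cells, whose part in this was not tested, also carry 2B4. *Ly9*, a SLAM family receptor that binds itself, fell most of these 5, by less than *Slamf6* (log2 fold change -0.66, SE 0.13, edgeR adjusted p = 0.000288). With ibrutinib in repeat peptide cells *Cd84*, a further SLAM family receptor that binds itself, rose by 0.50 on the log2 scale (SE 0.13, edgeR adjusted p = 0.0328), a call lost in 5 of 9 fits that left out 1 library (repeat peptide DMSO B, C or D or repeat peptide ibrutinib A or E, adjusted p 0.0581 to 0.114).

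Among 23 adaptors and kinases bound by the receptors or downstream of them, 2 were higher and 13 lower in repeat peptide cells with DMSO, where 22.8% of all genes were higher and 24.2% lower. The higher ones were *Siva1*, whose product binds CD27, and *Nfkb2*, a subunit of the non-canonical NF-κB path. *Siva1* rose from 483.4 ± 178 to 898.8 ± 260 normalized counts (log2 fold change 0.89, SE 0.29, edgeR adjusted p = 0.0132), a call lost without repeat peptide DMSO D (adjusted p = 0.0636). *Grap2*, which encodes the CD28 adaptor GADS, fell most, from 13536 ± 1207 (SD, n = 5) to 3973 ± 330 (SD, n = 4), a log2 fold change of -1.77 (SE 0.13, edgeR adjusted p = 7.77e-09). The others that were lower included *Lck*, *Fyn*, *Vav1*, *Prkcq* and *Grb2*, which act in signalling of CD28 and the T cell receptor, *Traf1*, *Traf3*, *Traf5* and *Map3k14*, which act below the TNF receptor superfamily, and *Cd2ap* and *Pstpip1*, which bind CD2. With ibrutinib in repeat peptide cells *Grap2* and *Prkcq* were the 2 called of 23, where 5.92% of all genes were called, and both were higher, *Grap2* by 0.73 on the log2 scale (SE 0.13, edgeR adjusted p = 0.00187) to 6610 ± 1328 (SD, n = 5). With ibrutinib in single peptide cells *Relb* and *Nfkb2*, partners in non-canonical NF-κB signalling, were the 2 called of 23, both lower, where 3.04% of all genes were called. The list's median log2 fold change was -0.32 with repeat peptide in DMSO and 0.11 for ibrutinib in repeat peptide cells.

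Of 9 other TNF receptor superfamily members of T cells that were tested, 2 were higher and 6 lower in repeat peptide cells with DMSO (22.8% and 24.2% of all genes), with a median log2 fold change of -0.81. *Tnfrsf10b*, which encodes a death receptor for TRAIL, had the larger rise of the 2 called (log2 fold change 1.21, SE 0.30, edgeR adjusted p = 0.0026). *Tnfrsf25*, which encodes the costimulatory receptor DR3, fell most, from 85.1 ± 43.5 normalized counts (SD, n = 5) to 10.1 ± 9.95 (SD, n = 4), a log2 fold change of -3.05 (SE 0.55, edgeR adjusted p = 0.000161). It averaged 53.6 normalized counts over all libraries, close to the minimum of 50 for a call. Its differences within experiments A to D were uneven, at -5.17, -0.54, -3.12 and -3.01 in log2 CPM. *Tnfrsf8*, which encodes CD30, had a log2 fold change of 4.48 at 6.8 normalized counts on average, under the minimum for a call. For ibrutinib in repeat peptide cells 3 were called, where 5.92% of all genes were. *Tnfrsf13c*, the gene of the BAFF receptor, rose by 1.13 on the log2 scale (SE 0.26, edgeR adjusted p = 0.0122), a call lost without repeat peptide DMSO D (adjusted p = 0.0544), and *Tnfrsf14*, which encodes HVEM, was also higher. *Tnfrsf10b* fell by 1.07 (SE 0.30, edgeR adjusted p = 0.04), a call lost in 6 of 9 fits that left out 1 library (repeat peptide DMSO B, C or D or repeat peptide ibrutinib A, B or E, adjusted p 0.0627 to 0.149).

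Genes beside the receptors on the chromosome moved in either direction. The neighbours of *Tnfrsf9* within 200 kb, *Park7* at 0.1 kb and *Per3* at 57.5 kb, were lower in repeat peptide cells with DMSO (log2 fold changes -0.64 and -0.81, both called), as was *Camta1*, which overlaps it on the other strand (-0.58, called). *Sdf4*, which ends 0.2 kb before *Tnfrsf4*, had -0.03 and was not called. *9430015G10Rik*, 81.1 kb beyond *Tnfrsf18*, was higher (0.63, called). *Raph1*, 149.7 kb before *Cd28*, was higher (3.06, called), *Gm11579*, 3.3 kb beyond it, was not called (5.21), and *Tapbpl* and *Tnfrsf1a* on either side of *Cd27* were lower (-0.56 and -0.81, both called). Beside *Cd226*, *Rttn* at 46.0 kb was higher (0.75, called), and beside *Cd2*, *Ptgfrn* was higher (4.27, called) and *Igsf3* lower (-1.99, called). Between *Slamf1* and *Slamf6*, *Cd84* and, 19.3 kb before *Slamf6*, *Gm10521* were lower (-0.64 and -1.12, both called), as was *Cd48*, 61.9 kb before *Slamf1* (-0.54, called), and beyond *Slamf6*, *Ncstn* had -0.03 and was not called. Libraries were made with a strand-specific kit, but the strand setting of the counting is not given in the sources used here, so that reads of *Tnfrsf9* and *Camta1*, of *Cd27* and *Vamp1* and of *Slamf6* and *Gm37065*, which overlap, may not be fully told apart. The expected counts of all 10 receptors were whole in every library (within 0.005), so that no reads were shared out between them and other genes.

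The gene outside the 10 whose log2 CPM was most like each receptor over the 18 libraries was named as a description, since libraries share group, experiment and depth. *Tnfrsf9* was most like *Rgs16*, a regulator of G protein signalling (Pearson r = 0.987), *Tnfrsf4* most like *Bace2* (0.984), *Icos* most like *Gpr162* (0.979) and *Cd226* most like *Tmem71* (0.978). *Cd28* was most like *Cblb*, the gene of an E3 ligase that restrains CD28 dependent activation (0.966), and *Tnfrsf18* most like *Mipep* (0.950). *Slamf6* was most like *Tcf7*, the gene of the transcription factor TCF-1 (0.938), *Cd2* most like the ribosomal protein gene *Rps19* (0.941) and *Cd27* most like *1810034E14Rik* (0.939). *Slamf1* had the lowest of these values, 0.730 with *Akap2*.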

How the data were processed

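RNA-seq was measured in 18 cultures of OT-I CD8+ T cells. The authors trimmed reads, aligned them to GRCm38 with STAR inside RSEM and deposited a table of genes per library. Its expected counts are estimated read counts per gene, which need not be whole, and its TPM values are the authors' expression per length, scaled to the same total in each library. The deposited effective length in bases served in an alternative only. Per the labels, RSEM 1.3.1 and SAMtools 1.10 were used, and the authors' own DESeq2 test comes after these tables and was not used.

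Expected counts were rounded, and the 27903 genes that GENCODE M21 types as protein-coding or lncRNA were kept ( 45143 of 45706 identifiers matched). They held 98.5% of counts. In R 4.3.3, edgeR 4.0.16 (filterByExpr, TMM, glmQLFit with robust, glmQLFTest) tested 12255 genes in a single fit of 4 groups, and p-values were adjusted over all of them. A normalized count is the count divided by the library's effective size and multiplied by the mean effective size. Log2 CPM values have a prior count of 2. Scripts were tested on simulated data. At the depths given, counting error is small and the spread between cultures limits precision, except for genes with a few counts. Counts of any 2 libraries of a group differed beyond sampling noise, with a chi-square of at least 26.55 per degree of freedom.

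Deviations from the group means correlated above 0.1 (0.16 to 0.494) in each of 24 pairs that share an experiment across groups, whereas the other 97 pairs had a median of -0.0765. The experiment, which comes from the genotype entry of the labels, was therefore taken to pair libraries, and its block is an alternative since the study's methods name none. The members and lists were chosen with earlier results of these data known. The genes named are the 10 members, *Ctla4* and *Tigit*, the largest called rise and fall of each list in repeat against single peptide cells with DMSO and for ibrutinib in repeat peptide cells, the nearest tested gene on either side within 200 kb, and the most correlated gene. Genes named without values, the cell type markers, *Cd70*, *Icosl* and the other genes of these lists were added after their values were seen. Alternatives tried were all gene types, DESeq2's size factors, the low count filter removed, only the groups compared, the block, DESeq2 1.42.0 (Wald test), a length offset, limma 3.58.1 on log2(TPM + 1), adjusted p alone, and each library left out in turn. Of 91 list entries 90 matched a gene.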

Additional observations from a re-analysis of the deposited data

Results flagged for a closer look

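*Tnfrsf9* in single peptide cells with ibrutinib stood at 283.8 normalized counts in experiment C, apart from the 122.3 to 137.7 of the other 3 libraries (Dixon's criterion for 4 values). *Slamf6* stood apart in the same way in 2 groups, at 3157 normalized counts in experiment A of single peptide cells with DMSO, where the others had 1929 to 2104, and at 1998 in experiment B of single peptide cells with ibrutinib, where the others had 2444 to 2528. The criterion was applied to 48 groups of libraries, and chance flags about 1 in 20. The effect of ibrutinib on *Icos* differed between repeat and single peptide cells by -0.78 on the log2 scale, by the interaction term of the fit.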

How the results depend on the processing

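Of the 930 refits of a member's log2 fold change, 872 kept their direction and their side of the thresholds, 33 lost a call, 17 gained one and 8 changed sign. The number of receptors called for ibrutinib in repeat peptide cells was 2 and became 4 with the replicate block (experiment), 1 in a fit of only the groups compared and 5 with DESeq2's Wald test, which added *Tnfrsf4*, *Tnfrsf9* and *Slamf6*; leaving out 1 library gave 2 to 4. The cause was not tested. The share of all genes called under each alternative is not given here, so that counts under an alternative have no background to be read against. The count for the difference of the ibrutinib effects was 1 and became 0 without the filter on low counts and with limma on log2(TPM + 1), and 0 to 1 when 1 library was left out; beside these counts of 0, *Icos* had an adjusted p of 0.0502 and 0.41, and DESeq2 called 1. The block changed no other call than those of *Tnfrsf9*, *Slamf6* and *Cd2* given above. Values that changed sign were not called and lay near 0. They were those of *Tnfrsf18* for ibrutinib in repeat peptide cells (-0.19 to 0.07 when 1 library was left out), of *Slamf6* for ibrutinib in single peptide cells (-0.001 with limma), of *Cd2* there (-0.016 to 0.155 when 1 library was left out), and of *Cd2* in the difference of the effects (-0.008 with the block, -0.003 with limma, -0.031 to 0.181 when 1 library was left out). For the log2 ratio of *Cd226* to *Tigit*, leaving out a library of the larger group left 4 against 4, where the smallest adjusted p reached was 0.0571, so that this says nothing of stability. When 1 library was left out, its difference was -6.42 to -5.78 for repeat against single peptide cells with DMSO, -6.19 to -5.32 with ibrutinib, 2.30 to 2.93 for ibrutinib in repeat and 1.84 to 2.71 in single peptide cells. The log2 ratio of *Cd28* to *Ctla4* for ibrutinib in repeat peptide cells went from -0.04 to 0.21 and changed sign without repeat peptide DMSO D (-0.039) or repeat peptide ibrutinib A or B (-0.005 each).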
